A study of Mus musculus with 10 samples.

Results

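The 10 Frizzled receptor genes of the mouse, *Fzd1* to *Fzd10*, were followed in the cortical hem (CH) of embryos with and without working *Lmx1a*. They were chosen by name, as the 10 genes of the 52227 in the count table whose symbol is *Fzd1* to *Fzd10*, and all 10 were among the 21664 genes with enough reads to test. The CH is a strip of dorsal midline neuroepithelium between the choroid plexus and the cortex that secretes Wnt and Bmp proteins and gives rise to Cajal-Retzius (CR) cells. Frizzleds are membrane proteins with an outer cysteine-rich domain that binds Wnt ligands and an inner face that recruits Dishevelled. With the co-receptors Lrp5 and Lrp6 they stabilize beta-catenin, and with Celsr, Vangl and Prickle proteins they orient cells in the plane of a tissue. A cell that makes Wnts can also carry Frizzleds, so the receptors present in the CH bear on how it reads its own signals.

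Each of the 10 libraries held CH RNA of a single e13.5 embryo, 5 of them wild-type and 5 *Lmx1a-/-*. The mutants were homozygous for the dreher allele *drJ*, a point mutation that leaves an inactive protein, so *Lmx1a* transcripts remain and their level is no check of the genotype. Mice were of a mixed C57Bl6, FVB and CD1 background. The CH was cut out whole by laser capture microdissection, with its edges set from Lmx1a immunostaining of alternate sections, and the captured sections of each embryo were pooled.

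Between 19145952 and 36462780 reads per library were counted on genes, and mitochondrial genes took 20.6% to 27.6% of them. All 13 CH markers examined had enough reads to test, with a summed level of 2375 to 4511 normalized CPM (a gene's reads scaled to a common library size, here corrected by TMM) in wild-type and 2788 to 3925 in *Lmx1a-/-* embryos, and by the test used here 5 of them were lower in the mutants and 1, *Lmx1a*, was higher. Wild-type embryo 3 stood apart, with the lowest CH sum (2375) and the lowest choroid plexus sum (122.3) of the 10 libraries and the highest cortical sum among wild-type embryos (886.6). *Xist*, which only the inactive X chromosome transcribes, was at 4399 to 5169 CPM in wild-type embryos 2 to 5 and at no more than 1.15 CPM in wild-type embryo 1 and the 5 mutants, which carried Y-linked transcripts. Sex and genotype therefore nearly coincided. *Lmx1a* itself ranged over 45.6 to 90.8 CPM in wild-type and 89.9 to 144.9 CPM in mutant embryos.

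All Frizzleds share a short cytoplasmic motif through which they bind Dishevelled, a lysine and a threonine followed after 3 residues by a tryptophan. Each of the 10 members had it exactly once in its coding frame. The coding bases around it are printed for 9 members because they show what the family holds in common and how its members differ. They do not follow the branches throughout, as the motif of *Fzd10* is closer to that of *Fzd7* than to that of *Fzd9*. Each line gives 30 bases of the GRCm38 genome on the gene's own strand, with the 6 codons of the motif in capitals.
Fzd1: tccggcAAGACACTGAATTCCTGGaggaag
Fzd2: tccggcAAGACACTGCACTCGTGGaggaag
Fzd7: tcgggcAAGACCCTGCAGTCATGGcgtcgc
Fzd3: agcaaaAAGACATGCTTTGAATGGgccagt
Fzd6: agcaaaAAGACGTGCACAGAATGGgccggg
Fzd4: tctgccAAAACTCTTCACACGTGGcaaaag
Fzd9: agttccAAGACTTTTCAGACTTGGcagagc
Fzd10: acttccAAGACCCTGCAGTCCTGGcaacac
Fzd5: tccggcAAGACTCTGGAGTCTTGGcggcgg

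The windows lie at chr5:4755700-4755729 (minus strand) for *Fzd1*, chr11:102606367-102606396 (plus) for *Fzd2*, chr1:59484601-59484630 (plus) for *Fzd7*, chr14:65212101-65212130 (minus) for *Fzd3* and chr15:39033943-39033972 (plus) for *Fzd6*. Those of *Fzd4*, *Fzd9*, *Fzd10* and *Fzd5* lie at chr7:89408235-89408264 (plus), chr5:135249410-135249439 (minus), chr5:128602790-128602819 (plus) and chr1:64735005-64735034 (minus). The stretch of coding sequence behind the motif set apart the branch of *Fzd1*, *Fzd2* and *Fzd7* and that of *Fzd3* and *Fzd6*. It was 17 codons long in *Fzd1*, *Fzd2* and *Fzd7*, and 159 and 206 in *Fzd3* and *Fzd6*. In *Fzd4*, *Fzd10* and *Fzd9* it was between 33 and 54, and in *Fzd5* and *Fzd8* it was 55 and 74. *Fzd9* (54 codons) and *Fzd5* (55 codons) were nearly equal, so the length did not separate their branches. Over the 45 pairs of members, coding sequences were 61.7% to 82.7% identical, with *Fzd1* and *Fzd2* the closest pair and *Fzd9* and *Fzd10* at 73.2%. The longest run of bases that any pair of their transcripts shared was 47, so no members are near-identical copies of each other.

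The level of the receptors in the CH was set by *Fzd3* in both genotypes. Per kb of exon, *Fzd3*, which is required for the growth of forebrain axon tracts, stood at 106 ± 20.0 normalized CPM in wild-type (mean ± SD, n = 5) and 111 ± 15.7 in *Lmx1a-/-* embryos. That was 59.7% of the summed family level in wild-type and 60.4% in mutant embryos. *Fzd1* came next at 26.0 ± 2.12 and 25.3 ± 2.73 CPM per kb. *Fzd9*, *Fzd2*, *Fzd7* and *Fzd10* formed a middle group, at 11.8, 9.88, 7.97 and 7.69 CPM per kb in wild-type embryos. *Fzd6* (4.40), *Fzd8* (2.61) and *Fzd4* (1.25) were lower, and *Fzd5* was the lowest at 0.259 CPM per kb.

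The order of the 10 means was the same in both genotypes, but not every step in it exceeded the spread between embryos. In wild-type embryos the ranges parted only between *Fzd3* and *Fzd1* and between *Fzd1* and *Fzd9*, and from *Fzd9* down each gene overlapped the next. In *Lmx1a-/-* embryos the range of *Fzd9* (15.6 to 23.5 CPM per kb) reached into that of *Fzd1* (21.4 to 28.7) and left that of *Fzd2* (9.75 to 11.8). The ranges of *Fzd2* and *Fzd7* and those of *Fzd4* and *Fzd5* also parted in the mutants. The family sum was 178 ± 16.4 CPM per kb in wild-type and 184 ± 16.7 in mutant embryos, with ranges of 161 to 197 and 165 to 206 that overlapped almost fully.

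**Figure D1:**
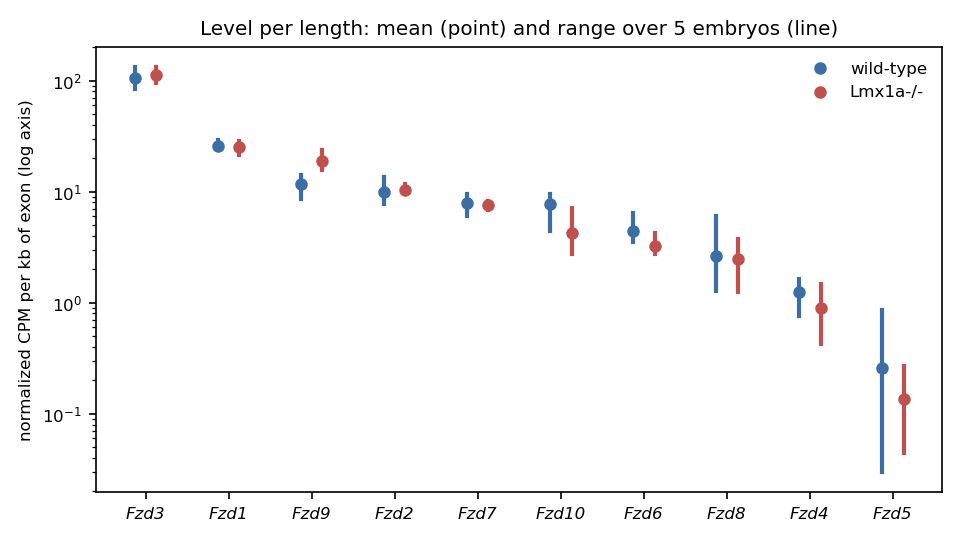
Mean level of each Frizzled gene (point) with the range over 5 embryos (line), in normalized CPM per kb of exon on a log axis, for wild-type (blue) and *Lmx1a-/-* (red) CH. *Fzd3* lies above the other members in both genotypes, *Fzd5* lies lowest, and the red and blue ranges part only at *Fzd9*.

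The question put to each member was whether its transcript level differed between wild-type and *Lmx1a-/-* CH. 1 of the 10 Frizzled genes passed the threshold, which was a false discovery rate (FDR, by Benjamini and Hochberg's method over all 21664 genes) below 0.1 in edgeR's quasi-likelihood test. *Fzd9* was higher in the mutants, where 1.72% of all genes tested were higher, and no Frizzled gene was lower, where 2.29% of all genes were. In either direction 4.02% of all genes were called. The likelihood ratio and exact tests of edgeR and DESeq2 each called 1 Frizzled gene lower, *Fzd10*. At an unadjusted p under 0.05, 3 members were picked out (*Fzd6*, *Fzd9* and *Fzd10*), against 3545 of all genes (16.4%). The log2 fold changes of 7 members were negative and those of 3 positive, with a median of -0.07 against -0.0049 over all genes. Because the CH was sampled in bulk, fewer cells of a type and less RNA per cell cannot be told apart in any of these values.

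**Figure D2:**
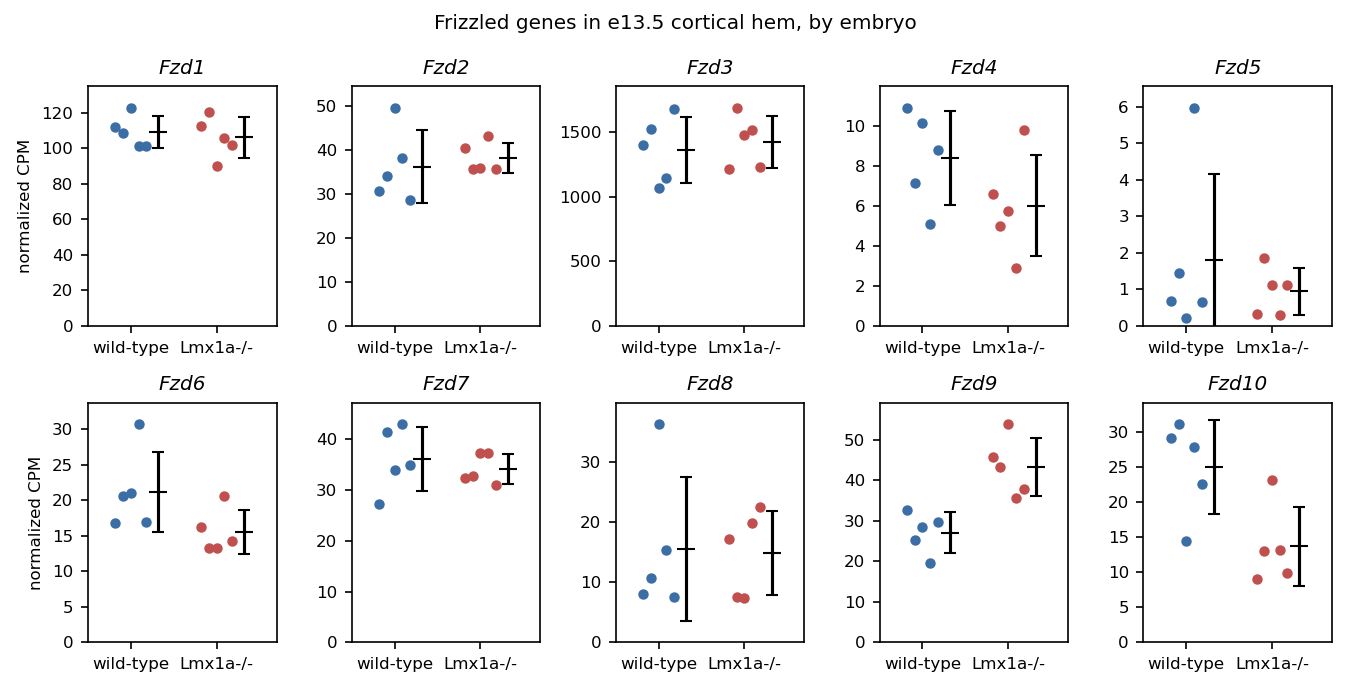
Normalized CPM of each Frizzled gene in the 5 wild-type (blue) and 5 *Lmx1a-/-* (red) embryos, in the order of embryo numbers from left to right, with the mean and SD in black at the right of each group. Each panel has its own linear axis from 0, which cuts the lower SD bar of *Fzd5* in wild-type embryos. The groups part fully in the panel of *Fzd9* (19.5 to 32.6 against 35.7 to 53.9), and in that of *Fzd10* embryo 3 of each genotype lies within the other group.

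*Fzd9* (ENSMUSG00000049551, chr5:135248938-135251230, minus strand, 1 coding exon) is known in the developing forebrain as a receptor gene of the medial cortical wall and the hippocampal primordium next to the CH. Its level in wild-type embryos 1 to 5 was 32.6, 25.2, 28.4, 19.5 and 29.8 normalized CPM. In *Lmx1a-/-* embryos 1 to 5 it was 45.7, 43.4, 53.9, 35.7 and 37.9 CPM. Every mutant lay above every wild-type embryo, a separation that 4.44% of all genes tested showed in one direction or the other. The means were 27.1 ± 5.00 and 43.3 ± 7.15 CPM, a 1.60-fold higher level in the mutants. The log2 fold change was 0.67 (SE 0.146, 95% interval 0.36 to 0.99, FDR = 0.0314 in edgeR's quasi-likelihood test). An exact permutation test of the 2 means gave p = 0.00794 (two-sided), the smallest that 5 against 5 embryos allow.

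The call for *Fzd9* held with any 1 embryo left out, with log2 fold changes of 0.57 to 0.75 and an FDR of 0.0332 to 0.0832. Wild-type embryo 1, which had Y-linked transcripts like the mutants, was also the wild-type embryo with the most *Fzd9*, at 32.6 CPM against 35.7 in the lowest mutant. Against that single embryo the log2 fold change of the mutants was 0.41, a value from which no call is read. With the *Xist* level as a covariate it was 0.40 (FDR = 0.656). Among wild-type embryos only embryo 1 had *Xist* as low as the mutants, so that value also rests mostly on embryo 1. With the choroid plexus list as a covariate the log2 fold change was 0.75, but the FDR rose to 0.223. The 8 cortical neuroepithelium markers summed to 455 to 887 CPM in wild-type and 814 to 1095 CPM in mutant embryos. Of these, 2 were higher by the same test (*Emx2* and *Fezf2*) and 7 had positive fold changes, and their part in the level of *Fzd9* was not tested.

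Of all genes tested, *Zc4h2*, *Rhbdl3* and *Pgap1* followed *Fzd9* most closely over the 10 libraries. The root mean square difference of their centred log2 CPM from that of *Fzd9* was 0.155, 0.169 and 0.171, against an SD of 0.436 for *Fzd9* itself. Their own log2 fold changes were 0.66, 0.62 and 0.58. These genes were picked by that closeness over the same libraries, so fold changes near that of *Fzd9* follow from the choice.

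*Fzd10* (ENSMUSG00000081683, chr5:128600844-128604093, plus strand, 1 coding exon), the nearest relative of *Fzd9*, is known as a receptor gene of the dorsal neural tube and the CH itself. Wild-type embryos 1 to 5 had 29.1, 31.1, 14.5, 27.8 and 22.5 CPM. *Lmx1a-/-* embryos 1 to 5 had 9.01, 13.04, 23.2, 13.2 and 9.95 CPM. Embryo 3 of each genotype was the exception in its group, the wild-type one low and the mutant one high, so that the groups overlapped. The means were 25.0 ± 6.68 and 13.7 ± 5.63 CPM, 1.82-fold higher in wild-type.

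The log2 fold change of *Fzd10* was -0.87 (SE 0.259, 95% interval -1.43 to -0.31), and it missed the threshold in edgeR's quasi-likelihood test with an FDR of 0.1104. Without wild-type embryo 3 it was -1.01 (FDR = 0.0434) and without mutant embryo 3 it was -1.15 (FDR = 0.0207), both past the threshold. With any other embryo left out it stayed short of it, at an FDR of 0.135 to 0.228 and log2 fold changes of -0.90 to -0.75. The exact permutation test of the means gave p = 0.0238 (two-sided). Wild-type embryo 3, which had the least *Fzd10* of its group, was the library with the lowest CH and choroid plexus marker sums. Markers of choroid plexus epithelium summed to 122 to 470 CPM in wild-type and 151 to 221 CPM in mutant embryos. Of the 10 tested, 3 were lower (7 at an unadjusted p under 0.05), with *Kl* and *Cldn2* too low to test. With that list as a covariate the log2 fold change of *Fzd10* was -0.27 (FDR = 0.819). Of the 10 choroid plexus genes 9 had negative fold changes themselves, and the part of each cannot be told apart. Against wild-type embryo 1 alone, the single wild-type library with Y-linked transcripts, the log2 fold change of *Fzd10* was -1.09, a value with 1 embryo in that arm. With the *Xist* level as a covariate it was -1.07 (FDR = 0.449 in edgeR's quasi-likelihood test). That value also rests mostly on wild-type embryo 1, so it is no separate estimate.

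Set beside each other within each embryo, *Fzd9* and *Fzd10* parted the genotypes, a comparison chosen after their values were seen and therefore given without a test. *Fzd9* alone already parted the genotypes, so the ratio adds no separate evidence. The level per kb of *Fzd10* divided by that of *Fzd9* was 0.630, 0.870, 0.359, 1.01 and 0.534 in wild-type embryos 1 to 5. In *Lmx1a-/-* embryos it was 0.139, 0.212, 0.304, 0.262 and 0.185. No mutant reached the lowest wild-type ratio, that of embryo 3. As shares of the family sum, *Fzd9* went from 6.63% to 10.2% and *Fzd10* from 4.31% to 2.28%.

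**Figure D3:**
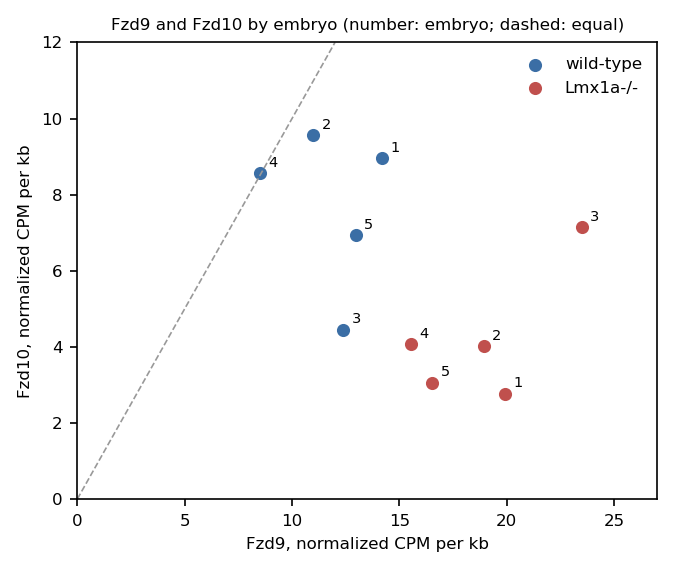
*Fzd10* against *Fzd9* in each embryo, both in normalized CPM per kb of exon, for wild-type (blue) and *Lmx1a-/-* (red) CH. Numbers name the embryos and the dashed line marks equal levels. Wild-type embryo 4 lies on the line (ratio 1.01), the other wild-type embryos fall below it and the 5 mutants lie farthest below (0.139 to 0.304).

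*Fzd4* (ENSMUSG00000049791, chr7:89404355-89413134, plus strand), the third gene of this branch, encodes the receptor for Norrin as well as for Wnts and is needed for retinal vessels. Its level was 10.9, 7.13, 10.1, 5.09 and 8.79 CPM in wild-type and 6.58, 5.00, 5.76, 2.88 and 9.81 CPM in *Lmx1a-/-* embryos. The groups overlapped widely, with mutant embryo 5 above 3 of the wild-type embryos. The log2 fold change was -0.49 (SE 0.296, 95% interval -1.13 to 0.15, FDR = 0.450). Leaving out mutant embryo 4 made it -0.31 and leaving out mutant embryo 5 made it -0.73, neither past the threshold. Markers of endothelium, in which *Fzd4* is also made, summed to 26.7 to 95.3 CPM in wild-type and 24.8 to 68.9 CPM in mutant embryos, and none of the 10 was called by edgeR's quasi-likelihood test (1 at an unadjusted p under 0.05). Summed over *Fzd4*, *Fzd9* and *Fzd10* the level was 20.8 ± 2.81 CPM per kb in wild-type and 24.0 ± 4.48 in mutant embryos.

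*Fzd3* (ENSMUSG00000007989, chr14:65192449-65262463, minus strand, 6 coding exons) and *Fzd6* (ENSMUSG00000022297, chr15:39006034-39038188, plus strand, 7 coding exons when its 5 annotated transcripts are merged) encode the Frizzleds most tied to planar cell polarity in mammals. *Fzd3* was at 1399, 1523, 1066, 1147 and 1682 CPM in wild-type and 1218, 1689, 1480, 1513 and 1229 CPM in mutant embryos. The groups covered nearly the same range, and with a log2 fold change of 0.06 the 95% interval ran from -0.21 to 0.34 (FDR = 0.856).

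*Fzd6*, which orients hair follicles, was at 16.8, 20.6, 20.9, 30.7 and 16.9 CPM in wild-type embryos. It was at 16.2, 13.3, 13.3, 20.6 and 14.3 CPM in *Lmx1a-/-* embryos. Of the mutants, 4 lay below the lowest wild-type embryo and mutant embryo 4 lay among the wild-type values, of which that of wild-type embryo 4 was the highest. The log2 fold change was -0.44 (SE 0.182, 95% interval -0.84 to -0.05), and the gene did not pass the threshold (FDR = 0.239 in edgeR's quasi-likelihood test, p = 0.0635 in the exact permutation test). Without wild-type embryo 4 the log2 fold change of *Fzd6* was -0.28 (FDR = 0.448), and with the *Xist* level as a covariate it was -0.10 (FDR = 0.951). The second value rests mostly on wild-type embryo 1, the lowest of its group at 16.8 CPM, so the part of sex cannot be read from it. An antisense partner, *Gm26704*, shares 152 exonic bases with *Fzd6* on the opposite strand, so a few of its counts are uncertain.

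*Fzd1*, *Fzd2* and *Fzd7* are close relatives that act mostly through beta-catenin and can stand in for one another in mouse development. *Fzd1* (ENSMUSG00000044674, chr5:4753839-4758035, minus strand) was at 112, 109, 123, 101 and 101.5 CPM in wild-type and 113, 120.4, 89.9, 106 and 102.1 CPM in mutant embryos. It was the steadiest member in wild-type embryos, with an SD of 8.90 on a mean of 109 CPM. Its log2 fold change was -0.04 with a 95% interval of -0.23 to 0.15 (FDR = 0.867), the narrowest of the family.

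*Fzd2* (ENSMUSG00000050288, chr11:102604396-102608058, plus strand) was at 30.7, 34.1, 49.6, 38.1 and 28.6 CPM in wild-type and 40.4, 35.8, 35.9, 43.2 and 35.7 CPM in mutant embryos. *Fzd7* (ENSMUSG00000041075, chr1:59482424-59486955, plus strand) was at 27.2, 41.5, 34.0, 43.0 and 34.9 CPM in wild-type and 32.4, 32.8, 37.2, 37.4 and 30.9 CPM in mutant embryos. For both genes the mutants fell inside the wild-type range. In the fit, the log2 fold change was 0.08 for *Fzd2* (95% interval -0.22 to 0.38, FDR = 0.839) and -0.08 for *Fzd7* (95% interval -0.34 to 0.19, FDR = 0.810). Together the 3 genes summed to 43.9 ± 4.10 CPM per kb in wild-type and 43.2 ± 2.87 in mutant embryos, 24.9% and 23.6% of the family.

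*Fzd5* and *Fzd8*, a branch with roles in eye and forebrain development, were the least regular members. *Fzd8* (ENSMUSG00000036904, chr18:9212163-9218136, plus strand) was at 7.99, 10.7, 36.3, 15.4 and 7.54 CPM in wild-type and 17.2, 7.55, 7.46, 19.8 and 22.4 CPM in *Lmx1a-/-* embryos. Wild-type embryo 3 carried more than any other embryo, and mutants 1, 4 and 5 lay apart from mutants 2 and 3. In the fit its log2 fold change was -0.06 (95% interval -1.01 to 0.88, FDR = 0.963), and without wild-type embryo 3 it was 0.52, still short of the threshold.

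*Fzd5* (ENSMUSG00000045005, chr1:64730558-64737751, minus strand) was covered by only 7 to 115 reads per library. It was at 0.672, 1.44, 0.206, 5.97 and 0.665 CPM in wild-type and 0.333, 1.85, 1.12, 0.305 and 1.11 CPM in mutant embryos. Wild-type embryo 4 alone made the wild-type mean the higher one. Its log2 fold change of -0.92 had a 95% interval of -2.61 to 0.77 (FDR = 0.609), and without that embryo it was 0.33. No difference was detected in either direction, with few reads and a wide spread between embryos. *Fzd5* also shares 1233 exonic bases with *Gm38058* on the opposite strand, and its counts are uncertain for that reason too.

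**Figure D4:**
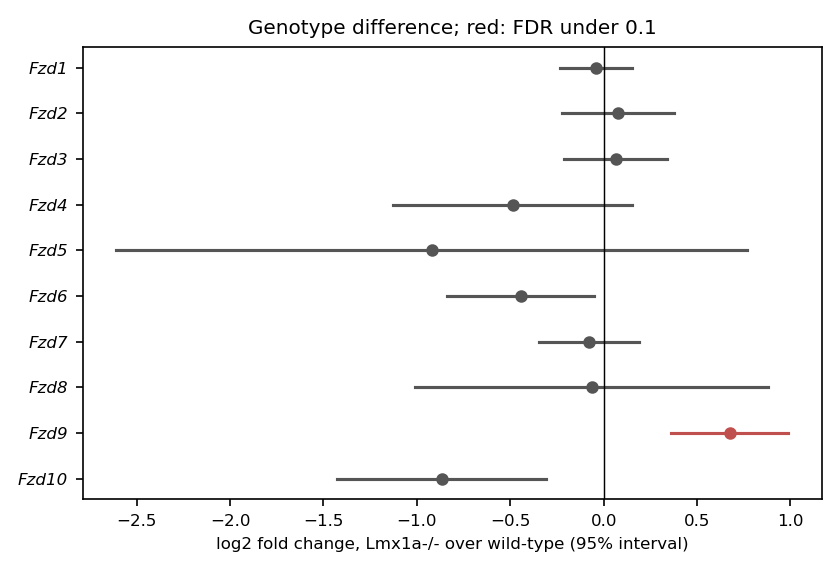
Log2 fold change of each Frizzled gene, *Lmx1a-/-* over wild-type, with its 95% interval from edgeR's quasi-likelihood fit; 0 means no difference and red marks an FDR under 0.1. The intervals of *Fzd1*, *Fzd2*, *Fzd3* and *Fzd7* are short and cover 0, those of *Fzd5* and *Fzd8* are long, *Fzd9* lies to the right (0.67) and *Fzd10* to the left (-0.87).

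RefSeq promoter windows (GRCm38.p6, 250 bases before the start and 50 after) were on hand for 6 members, *Fzd1*, *Fzd4*, *Fzd5*, *Fzd7*, *Fzd9* and *Fzd10*. Neither the Tcf/Lef core CTTTGAT nor the LIM-homeodomain core TAATTA, searched on both strands, occurred in any of the 6, against 3.73% and 5.29% of all 32851 windows. With shares this low, finding none in 6 windows is likely for any genes, so nothing is read from it. By the GENCODE annotation only 67 bases of the *Fzd9* window and 0 of the *Fzd10* window lie upstream of the gene, so for *Fzd10* no upstream sequence was searched. The windows held 53 (*Fzd9*), 45 (*Fzd10*), 38 (*Fzd5*), 32 (*Fzd4*), 24 (*Fzd7*) and 16 (*Fzd1*) CpG dinucleotides, against a median of 7 over all windows.

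Around the receptors, 73 other genes of the pathway were tested in 9 lists ordered by role, of which 9 were lower and 1 higher in *Lmx1a-/-* CH, where 2.29% of all genes tested were lower and 1.72% higher. In lists this short a single call is already a larger share than that background. Sex nearly coincided with genotype in these libraries, and its part in the pathway calls was not tested. Of the genes that act on Frizzleds from outside, the secreted proteins with a Frizzled-type cysteine-rich domain, which can bind Wnts away from the receptors, had 1 of 4 higher. This was *Frzb*, at 10.3 ± 3.74 CPM in wild-type and 40.0 ± 4.83 in mutant embryos (log2 fold change 1.95, SE 0.216, FDR = 0.000665 in edgeR's quasi-likelihood test). Its groups did not overlap. The median of that list was 0.55.

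Among partners of single Frizzleds, 1 of 4 was lower, *Tspan12*, a tetraspanin that clusters *Fzd4* for Norrin. It was at 36.9 ± 2.63 and 26.3 ± 4.10 CPM (log2 fold change -0.49, FDR = 0.0449), with every wild-type embryo above every mutant, and the list's median was -0.46. The Shisa family includes proteins that hold Frizzleds in the endoplasmic reticulum, which is not established for *Shisa4* or *Shisa5*. Of the 4 Shisa genes tested, *Shisa4* was lower (19.3 ± 1.01 against 13.2 ± 2.96 CPM, -0.55, FDR = 0.0910) and the median was -0.53. None of 8 genes of receptor turnover and none of 6 co-receptors passed in edgeR's quasi-likelihood test, with 2 and 1 at an unadjusted p under 0.05 and medians of -0.43 and -0.23. The smallest p in these lists belonged to *Znrf3*, the ubiquitin ligase that removes Frizzleds from the surface (126 against 158 CPM, 0.33, FDR = 0.108, groups apart), and to *Ror1* (-0.46, FDR = 0.263).

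Of the ligands, 3 of 15 tested Wnt genes were lower and none higher, with a median of -0.88. That median weighs each gene alike, whatever its level. Summed over all 19 listed Wnt genes, the level was 1169 to 1941 CPM in wild-type and 1373 to 1627 CPM in mutant embryos. Those ranges overlapped. *Wnt2b* averaged 151 ± 31.2 CPM over wild-type and 74.3 ± 21.0 CPM over mutant embryos (-1.02, FDR = 0.0121), *Wnt9a* at 58.2 ± 16.5 and 31.6 ± 7.13 CPM (-0.88, FDR = 0.0430) and *Wnt5a* at 380.1 ± 67.5 and 286 ± 20.1 CPM (-0.41, FDR = 0.0770). The inner transducers, from Dishevelled to Tcf and Lef factors, showed 0 of 13 called by edgeR's quasi-likelihood test (3 at an unadjusted p under 0.05) and a median of 0.04, with *Gsk3b* the nearest (0.24, FDR = 0.144). Of the genes often activated by Wnt, 1 of 9 was lower, the feedback inhibitor *Nkd1*, at 117 ± 31.3 and 59.5 ± 10.9 CPM (-0.98, FDR = 0.00840), and the median was -0.11.

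The planar cell polarity partners of *Fzd3* and *Fzd6* had 3 of 11 lower and none higher, with a median of -0.31. *Celsr1*, an atypical cadherin that couples Frizzleds across cell borders, was at 197 ± 4.95 and 159 ± 17.5 CPM (-0.31, FDR = 0.0625). *Prickle2* was at 24.6 ± 5.94 and 15.2 ± 1.59 CPM (-0.70, FDR = 0.0484), and *Prickle1* at 9.27 ± 2.77 and 4.90 ± 1.05 CPM (-0.91, FDR = 0.0526). *Fzd3* (0.06, FDR = 0.856) and *Fzd6* (-0.44, FDR = 0.239) did not pass in the same quasi-likelihood fit. The fold change of *Fzd6* had the same sign as those of the 3 called partners, and that of *Fzd3* was close to no change.

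**Figure D5:**
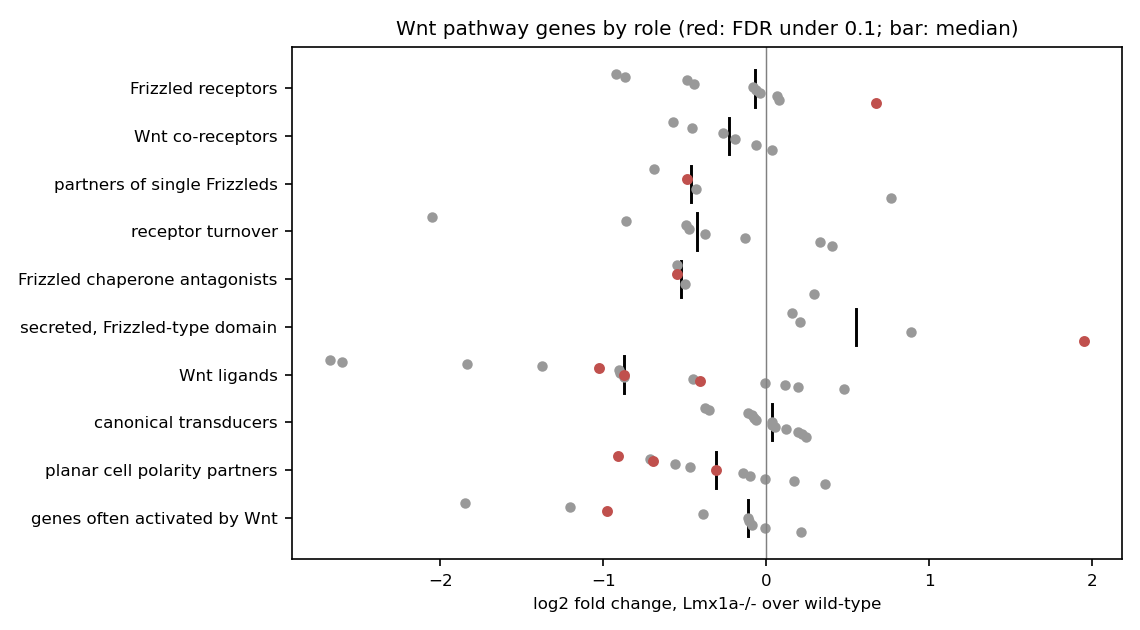
Log2 fold changes, *Lmx1a-/-* over wild-type, of the 10 Frizzled genes and of 9 lists of Wnt pathway genes by role, 1 point a gene, with the median of each list as a bar and genes at an FDR under 0.1 in red. Frizzled genes scatter on both sides of 0 (median -0.07) with *Fzd9* in red on the right, while 10 genes of the other lists are red, 9 on the left and *Frzb* on the right.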

How the data were processed

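The authors deposited unnormalized counts per Ensembl gene. The submitters' processing notes name FastQC 0.11.8, Trimmomatic, STAR 2.7.1a and HTSeq 0.11.2 on GRCm38; HTSeq's strand setting is not given in the sources used here. Of 52508 deposited rows, 281 exact repeats were dropped. A gene was tested if 3 or more libraries had 10 or more counts for it, with edgeR 4.0.16 (R 4.3.3): TMM scaling, quasi-likelihood test with trended dispersion, all 10 libraries, no covariate, Benjamini-Hochberg adjustment over all genes, FDR under 0.1. The SE is the fold change divided by the square root of F. Levels between genes were set per kb of exon union (GENCODE M21).

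Named were all 10 members, of each pathway list every gene past the threshold and the one with the smallest p, *Lmx1a*, *Xist*, and the 3 genes most like each called member. Marker genes that the text names fall outside this rule and were chosen after their values were seen; antisense genes are named for their overlap. The members and lists were chosen with earlier results of these data known. The ratio of *Fzd10* to *Fzd9*, the coding windows (in place of a protein comparison, not used here) and the fit over libraries with Y-linked transcripts were chosen after values were seen. Alternatives were the likelihood ratio and exact tests, DESeq2 1.42.0, robust and non-legacy fits, RLE, upper quartile and library size scaling, other filters, an embryo number block, *Xist* and choroid plexus covariates, an FDR of 0.05, mitochondrial genes left out, repeat rows kept, exact permutation, and each embryo left out. Only the quasi-likelihood, likelihood ratio and exact tests were run on simulated counts, which held no sex or choroid plexus effect. P values weigh the difference between the genotype groups against the spread between embryos, and sex nearly coincides with genotype in those groups.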

Additional observations from a re-analysis of the deposited data

Results flagged for a closer look

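Of 22 groups of 5 embryos examined for a library far from the rest, 2 had one, and chance sets apart about 1 group in 20. *Fzd5* in wild-type embryo 4 was at 5.97 normalized CPM, where the nearest wild-type embryo was at 1.44, a gap of 0.785 of the group's range. *Fzd8* in wild-type embryo 3 was at 36.3 CPM, where the nearest was at 15.4, a gap of 0.728 of the range. Both gaps exceeded the limit for 5 samples. The genotype comparison of neither gene passed the threshold with or without the embryo concerned.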

How the results depend on the processing

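*Fzd9* was higher in all 28 alternatives and past the threshold in 25. It was not past it with *Xist* or choroid plexus level as a covariate, or in the libraries with Y-linked transcripts (chosen after seeing the data), each of which left 0 Frizzled genes higher. The last has 1 wild-type embryo and says nothing about stability, and the fit with *Xist* rests mostly on that same embryo. *Fzd10* was lower in all 28, and 1 Frizzled gene was called lower in place of 0 by the likelihood ratio test, the exact test, DESeq2, the non-legacy fit and the fit without a filter. With 1 embryo left out, 0 to 1 Frizzled genes were lower and 1 higher. Over all genes, 497 were lower and 373 higher. The counts were 805 lower by the likelihood ratio test, 772 by the exact test, 976 lower and 790 higher by DESeq2, 27 and 4 with the *Xist* covariate, 73 and 110 with the choroid plexus covariate, 251 and 197 at an FDR of 0.05, and 261 to 604 lower and 190 to 455 higher with 1 embryo left out. The cause was not tested, except that the stricter FDR calls fewer genes by construction.

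Embryos that share a number did not deviate together (correlations of -0.082 to 0.00915, 0 of 10 closest to their own number), so the number is no pairing. With it as a block 353 genes were lower and 248 higher, *Fzd9* was at 0.68 (FDR = 0.0251), *Fzd10* at -0.92 (FDR = 0.194) and *Fzd8* turned to 0.11.

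Signs turned only in genes that were not called. *Fzd8* was at 0.95 with the *Xist* covariate and 0.90 in the Y-linked libraries, *Fzd5* at 0.45 and 0.46, *Fzd7* at 0.34 and 0.32, and *Fzd2* at -0.26 with the choroid plexus covariate. With 1 embryo left out, the range was -0.26 to 0.52 for *Fzd8*, -1.30 to 0.33 for *Fzd5*, -0.0026 to 0.22 for *Fzd2*, -0.10 to 0.0064 for *Fzd1*, -0.73 to -0.31 for *Fzd4*, -0.57 to -0.28 for *Fzd6* and -0.015 to 0.15 for *Fzd3*. Levels per kb of the longest transcript moved by less than 1 SD. Scaling moved the median of all genes by at most 0.0165. *Fzd5* had only 7 to 115 reads per library, and the part of depth in its spread was not tested.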

Other observations

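The CR cell markers, measured beside the receptors, summed to 333 to 544 CPM in wild-type and 230 to 333 CPM in *Lmx1a-/-* CH. Of the 7 tested, *Reln*, *Trp73* and *Lhx1* were lower and *Lhx5* was higher at an FDR under 0.1 in edgeR's quasi-likelihood test. Mesenchyme and meninges markers summed to 365 to 958 and 270.0 to 544 CPM, with 3 of 10 lower (5 at an unadjusted p under 0.05). Red blood cell markers summed to 617 to 1463 and 262 to 568 CPM, with 0 of 7 called (4 at an unadjusted p under 0.05). Neuron markers summed to 897 to 1354 and 941 to 1425 CPM and microglia markers to 14.3 to 31.8 and 15.1 to 30.2 CPM, with none of 8 and 8 called (2 and 1 at an unadjusted p under 0.05). The part of these cells in the Frizzled levels was not tested. Beside these and the other marker counts, 2.29% of all genes tested were lower, 1.72% were higher and 16.4% had an unadjusted p under 0.05.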
